A study of Mus musculus with 4 samples.

Results

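Heat shock proteins of 2 roles were followed across the 4 libraries of a mouse heart study, as 10 genes picked by symbol out of the 32285 genes in the count tables. The genes were chosen with earlier results of these data known, so their counts set against all genes only describe these values. The small heat shock proteins were Hspb1, Hspb6, Hspb7, Hspb8 and Cryab. The stress-inducible chaperones were Hspa1a, Hspa1b, Dnajb1, Hsph1 and Hsp90aa1. All 10 had UMIs in every library, and all of the values below are their UMIs (unique molecular identifiers, each a tagged RNA molecule) summed over every deposited barcode and scaled to the same library total as CPM (counts per 1000000).

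The samples were left ventricles of male C57BL/6J mice, wild type in all 4 conditions. Young animals were 3 to 5 months old and aged animals 24 to 26 months. At each age, 1 library came from mice with 45 min of ischemia, set by surgery on the left anterior descending coronary artery, followed by 24 h of reperfusion (I/R), and 1 library came from the control condition, called sham in the titles and healthy and unaltered in the treatment field. The labels name the molecule nuclear RNA where the methods describe a cell suspension, and the number of mice in a library is not given in the sources used here. With 1 library a condition, there is no replicate and no test was possible: the intervals given are 95% intervals of the counting error only, and a difference between conditions cannot be told apart from a difference between animals or preparations. In sums over barcodes, fewer cells of a type and less RNA per cell cannot be told apart either.

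Heat shock proteins keep other proteins from misfolding. Small heat shock proteins bind unfolding proteins without using ATP and hold them until the HSP70 machinery, with its J-domain partners and nucleotide exchange factors, refolds them or passes them on for breakdown, and in heart muscle several of them sit on the sarcomere and its cytoskeleton. The stress-inducible members are classical targets of the transcription factor HSF1, which binds inverted repeats of GAA, the heat shock elements, in their promoters.

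Depth differed between the libraries. They held between 91124 and 102883 barcodes and from 25836175 UMIs (young sham) to 66767829 (aged I/R), and the median barcode had between 244 and 675 UMIs. How many of these barcodes held a cell, rather than RNA from outside cells, was not tested. The sums and sets of barcodes below may therefore not describe cells. Any pair of libraries shared between 2366 and 2843 barcode sequences. Malat1, a long RNA kept in the nucleus, took 7.34% of the UMIs in young sham and between 2.22% and 4.33% in the other libraries, and the summed cytosolic ribosomal protein genes were lowest in young sham, at 20779 CPM, against 25180 to 30401 CPM elsewhere. Young I/R, the library with the highest level of 8 of the 10 members, had the most UMIs on Gm42418, which overlaps ribosomal RNA, at 19.4% against 11.5% to 14.0% elsewhere, and mitochondrial genes took 14.1% there and 15.6% in aged sham against 10.0% and 9.98% in young sham and aged I/R. The part of these differences in the chaperone values was not tested. All 20 cardiomyocyte markers were present in every library, and together they made up between 90636 and 111780 CPM.

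The promoters of 3 members are shown because their genes stood at the ends of the response in young hearts: Hspb1 and Hspa1a had the highest ratios of I/R to sham, and Hsph1 the lowest. The sequences are RefSeq windows on GRCm38.p6, written 5′ to 3′ on the strand of the gene. Capitals mark matches to the heat shock element letters, searched in both orders, which also covers both strands: 2 units are GAANNTTC or TTCNNGAA, and 3 units, which contain overlapping pairs of units, are GAANNTTCNNGAA or TTCNNGAANNTTC. For Hspb1 and Hspa1a the 250 bases before the start site are given. For Hsph1 the 30 bases that hold its match are given, from +21 to +50 of the first listed of its start sites.
Hspb1, chr5:135887669-135887918, plus strand: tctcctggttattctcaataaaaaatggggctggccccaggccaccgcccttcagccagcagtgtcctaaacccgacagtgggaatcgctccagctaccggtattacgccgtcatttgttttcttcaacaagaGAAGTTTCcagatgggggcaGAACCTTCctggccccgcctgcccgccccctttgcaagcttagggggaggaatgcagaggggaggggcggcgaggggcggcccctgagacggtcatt
Hspa1a, chr17:34972157-34972406, minus strand: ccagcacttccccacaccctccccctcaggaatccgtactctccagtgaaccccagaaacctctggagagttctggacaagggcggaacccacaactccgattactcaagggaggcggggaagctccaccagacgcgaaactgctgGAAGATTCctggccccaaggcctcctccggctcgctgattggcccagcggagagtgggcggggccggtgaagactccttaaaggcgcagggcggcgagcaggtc
Hsph1, chr5:149636287-149636316, minus strand: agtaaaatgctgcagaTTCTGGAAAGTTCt

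Cryab and Hsp90aa1 had no window in the RefSeq table and were not searched. The other 8 of the 10 members had a window of 250 bases before to 50 after a start site. A 2-unit match was found in 6 of them: at -117 and -97 in Hspb1, at -120 in the second window of Hspb6, at +3 in Hspb8, at -104 in both Hspa1a and Hspa1b, and at -33, +37 and +42 in the first window of Hsph1. Hspb6, Dnajb1 and Hsph1 each had a second window, and a match in either counted for the gene. Across all 32544 windows of that length, 15.1% held a 2-unit match, which is a share of windows and not of genes. The 3-unit match of Hsph1, at +37 in its first window, was the only one among the 8 members searched. Of all windows, 0.608% held one. The 250 bases upstream of Hspa1a and Hspa1b differed at 3 positions and carried the same match, GAAGATTC, at the same distance. These are matches of letters and no measure of binding.

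The small heat shock proteins were, as a sum, highest in the young I/R library. They gave 2770 CPM in sham and 5156 in I/R at the young age, and 3098 and 2959 at the old age. Young I/R stood 1.86-fold above its sham (log2 0.90, interval 0.88 to 0.91), whereas aged I/R lay slightly below aged sham (log2 -0.07, interval -0.08 to -0.06). The 5 genes did not follow 1 course, and each is given in turn, with its position on GRCm38.

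Hspb1 (chr5:135887919-135889563, plus strand), which binds actin filaments and holds unfolded proteins, was at 148 CPM in sham and 682 in I/R of young hearts, and at 126 and 183 CPM in those of aged hearts. The young I/R library was far above the other 3, which lay within a narrow range. Its ratio to young sham was 4.61-fold (log2 2.20, interval 2.16 to 2.25), and that of aged I/R to aged sham was 1.45-fold (log2 0.54, interval 0.49 to 0.59).

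Cryab (chr9:50751325-50756636, plus strand), the alpha-B crystallin that binds desmin and titin, went from 1311 CPM in sham to 2445 in I/R in the young pair of libraries and from 1376 to 1170.3 in the aged pair. It was again highest in young I/R, at 1.86-fold over sham (log2 0.90), but the aged I/R library was the lowest of all 4 (log2 -0.23 against aged sham). Cryab overlaps Hspb2, another small heat shock protein gene on the opposite strand, over 1030 bases, and whether the counting used strand is not given in the sources used here, so the values of both genes are uncertain. Hspb2 ran 52.9, 95.6, 67.8 and 58.3 CPM in the same order of libraries.

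Hspb7 (chr4:141420779-141425311, plus strand), the cardiovascular small heat shock protein of the sarcomere, had 830.3 CPM in sham against 1436 in I/R when young, and 1029 against 1191 when aged. It was higher in I/R than in sham at both ages, with a log2 ratio of 0.79 in young and 0.21 in aged hearts. Hspb6 (chr7:30552178-30555443, plus strand), also called Hsp20, is a target of cyclic nucleotide-dependent kinases and overlaps Proser3 by 122 bases and Lin37 by 3 bases on the opposite strand. It was at 257, 355, 316 and 237 CPM, so that young I/R was above its sham (log2 0.47) and aged I/R below (log2 -0.42). Hspb8 (chr5:116408491-116422864, minus strand), which works with the co-chaperone Bag3 in selective autophagy, was at 224, 239, 251 and 177 CPM. Its 3 highest libraries lay close together (young I/R over sham log2 0.09), and aged I/R was the lowest (log2 -0.50).

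**Figure D1:**
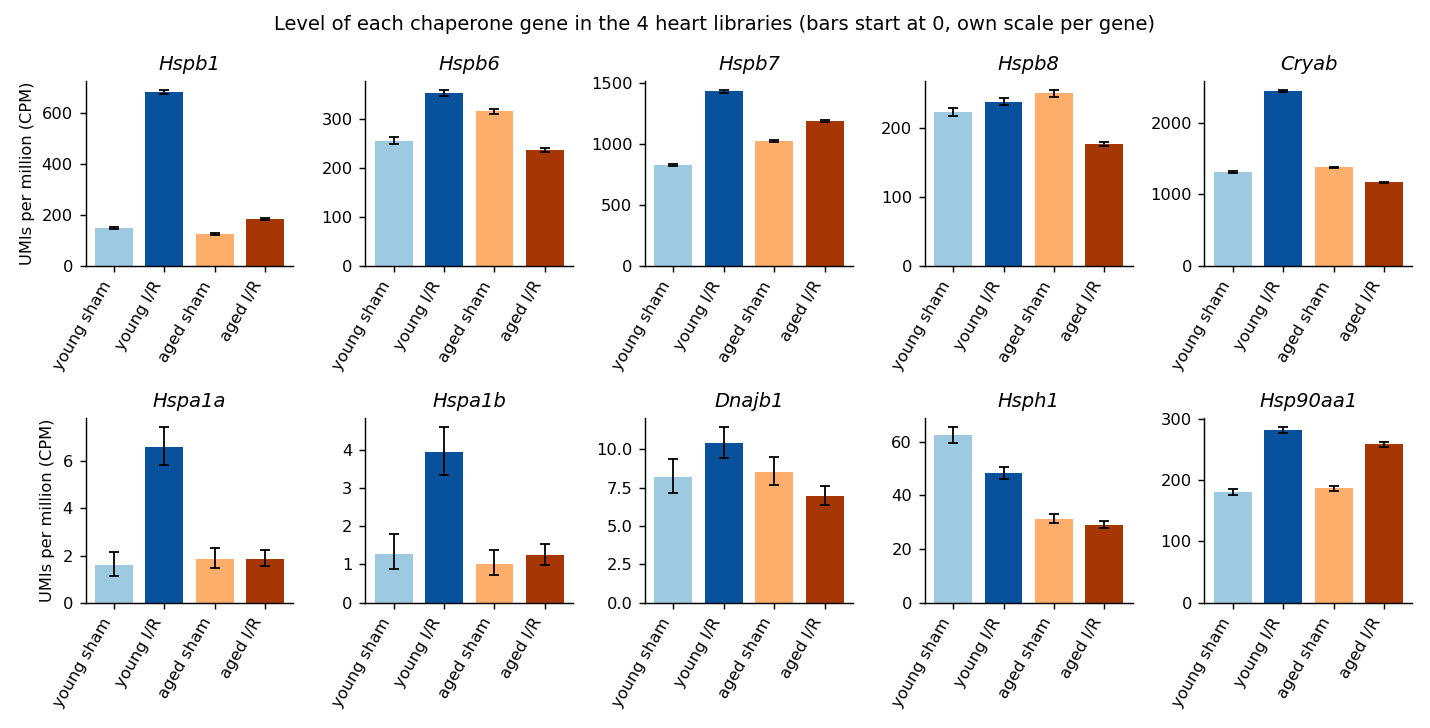
Level of each chaperone gene in CPM (vertical axis from 0, own scale for each gene) in sham (light) and I/R (dark) libraries of young (blue) and aged (orange) hearts, with 1 library a bar and error bars for the 95% exact Poisson interval of the count. Young I/R is the highest bar for 8 of the 10 genes: Hspb8 is highest in aged sham and Hsph1 in young sham.

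The stress-inducible chaperones summed to 254 CPM in sham and 351 in I/R of the young age and to 229 and 297 of the old, so that I/R was above sham by log2 0.47 in young and 0.38 in aged hearts. Hsp90aa1 supplied most of those UMIs, and the other members followed courses of their own.

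The inducible HSP70 genes Hspa1a and Hspa1b, paralogs on the minus strand of chromosome 17 (chr17:34969190-34972156 and chr17:34956436-34959238), had few UMIs in every library. Hspa1a had 41 UMIs in sham and 263 in I/R from young mice, and 77 and 125 from aged mice, or 1.59, 6.63, 1.86 and 1.87 CPM. Hspa1b had 33, 156, 42 and 83 UMIs, or 1.28, 3.93, 1.02 and 1.24 CPM. For both genes young I/R stood clear of the other libraries, which did not differ beyond their counting intervals. In young hearts the I/R ratio was 4.18-fold for Hspa1a (log2 2.06, interval 1.58 to 2.57) and 3.08-fold for Hspa1b (log2 1.62, interval 1.07 to 2.21). In aged hearts the log2 ratios were 0.01 (interval -0.41 to 0.44) and 0.29 (interval -0.26 to 0.86), so that at this depth a difference was not detectable. The longest transcripts of the pair were 85.3% identical over their length and 49.8% over the last 300 bases, the end that a 3′ kit reads, and how reads common to both were counted is not given in the sources used here, so each gene's own value is uncertain. Hspa1a also overlaps Gm20481 on the opposite strand over 2225 bases, and Gm20481 had 0 UMIs in every library. Hspa1a took between 55.4% and 64.7% of the UMIs of the pair in the 4 libraries, with 95% exact binomial intervals that all overlapped (43.4% to 67.0% in young sham and 55.4% to 73.2% in aged sham).

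Hsp90aa1 (chr12:110690605-110702728, minus strand), the inducible cytosolic HSP90, stood at 180.5 CPM in sham and 282 in I/R of young hearts, with 186 and 258 for aged hearts. It was higher in I/R at both ages, by log2 0.64 in young and 0.47 in aged hearts, and the sham libraries did not differ beyond counting error (log2 0.05, interval -0.01 to 0.10). Dnajb1 (chr8:83608193-83612653, plus strand), the J-domain partner that feeds substrates to HSP70, had 8.21, 10.4, 8.54 and 6.98 CPM. Its level was highest in young I/R (log2 0.35 over sham, interval 0.10 to 0.59). Aged I/R was the lowest (log2 -0.29 against aged sham, interval -0.49 to -0.09). Young sham lay between aged sham and aged I/R and was not separated from either beyond counting error.

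Hsph1 (chr5:149614287-149636376, minus strand), the HSP110 nucleotide exchange factor, had a course unlike the rest: 62.6 CPM in sham and 48.4 in I/R of young hearts, then 31.3 and 29.1 in the aged pair. Both young libraries were above both aged ones. I/R lay below sham in young hearts (log2 -0.37, interval -0.47 to -0.28) and a little below in aged hearts (log2 -0.10, interval -0.21 to 0.00), and aged sham was just short of 2-fold under young sham. The young I/R ratio of Hsph1 was 0.03 when the libraries were scaled by the median of gene-wise ratios, so its direction in young hearts depends on the scaling.

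**Figure D2:**
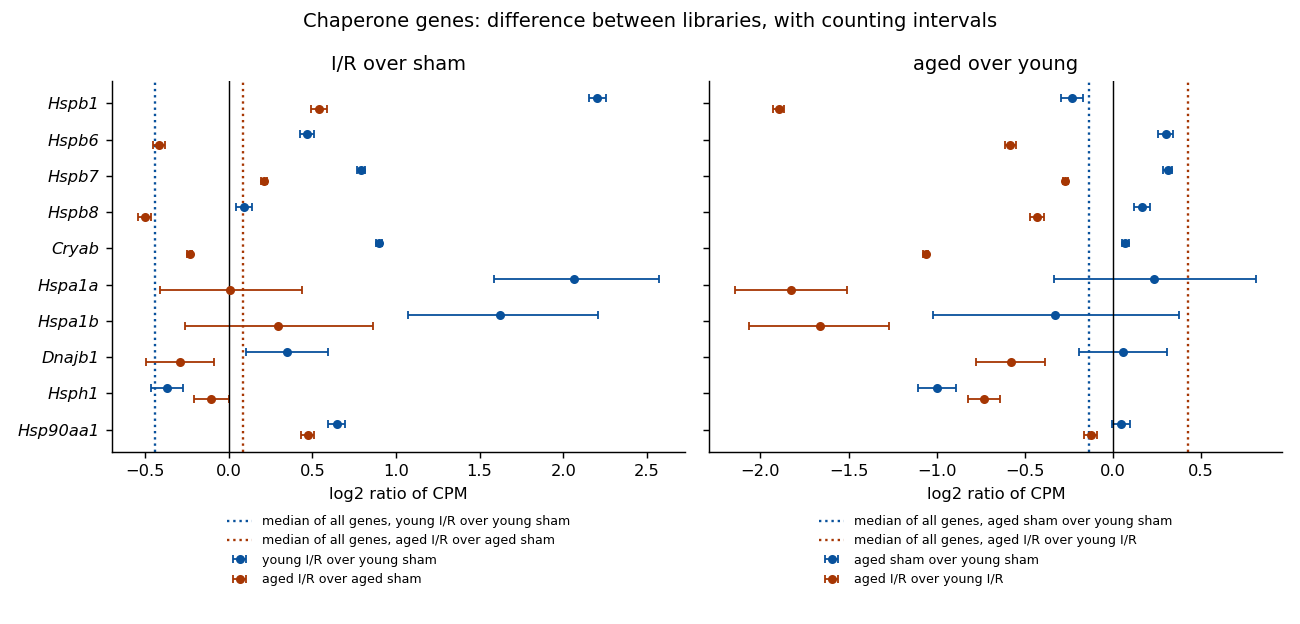
Log2 ratio of CPM for each gene between I/R and sham (left) and between aged and young (right), with 95% exact counting intervals as bars and dotted lines for the median of all genes in the same comparison. In young hearts the points run from -0.37 for Hsph1 to 2.20 for Hspb1, all to the right of the median of all genes at -0.44, and in the aged I/R over young I/R comparison all 10 lie left of 0.

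In young hearts the chaperones stood above other genes after ischemia/reperfusion. Their median log2 ratio was 0.72, against -0.44 over the 12465 genes with at least 100 UMIs in the pair of libraries, and 9 of 10 were above 0 where 3042 of those genes were. Hspb1, Hspa1a and Hspa1b, or 3 of 10 members, were at least 2-fold higher in young I/R, against 2.43% of all genes. None was at least 2-fold lower, against 22.0% of all genes. The RNA make-up of this pair of libraries also differed. Malat1 was lower in young I/R by a log2 ratio of -1.72, and 75 of 75 ribosomal protein genes were above 0 with a median of 0.41. The part of this difference in the lower-leaning background was not tested. Scaled to the summed ribosomal protein genes, a choice made after seeing the data, Hspb1 had a log2 ratio of 1.77, Hspa1a 1.63, Hspa1b 1.19, Cryab 0.47, Hspb7 0.36 and Hsp90aa1 0.21, whereas Hspb6 came to 0.03, Dnajb1 to -0.09, Hspb8 to -0.34 and Hsph1 to -0.81, against a median of -0.88 over all genes, 7.87% of which were above 0. Neutrophil markers, with Ly6g at 0 to 7 UMIs a library and the other 10 of 11 present throughout, summed to 15.4 CPM in young sham and 118 in young I/R, and to 26.2 and 112 in the aged libraries. Other marker lists ran the other way in young I/R, with log2 ratios of the summed level of -0.56 for fibroblast, -0.46 for macrophage, -0.44 for mural, -0.39 for erythroid, -0.20 for endothelial, -0.18 for cardiomyocyte and -1.73 for lymphocyte markers. In aged over young I/R, fibroblast (0.64), macrophage (0.86), mural (0.41), lymphocyte (1.69), cardiomyocyte (0.30) and endothelial markers (0.23) were higher. Erythroid (-0.93) and neutrophil markers (-0.08) were lower there. The median of all genes was 0.43 in that comparison, and -0.44 in young I/R over young sham. The part of these marker lists in the chaperone values was not tested.

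In aged hearts the same comparison gave small ratios on both sides of 0. The median of the members was -0.05, against 0.09 over 13722 genes, and 5 of 10 were above 0, as were 7934 of those genes. No member reached 2-fold in either direction, against 3.58% of all genes higher and 1.5% lower. Hspb1 (0.54) and Hsp90aa1 (0.47) were the highest, and Hspb6 (-0.42) and Hspb8 (-0.50) the lowest.

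**Figure D3:**
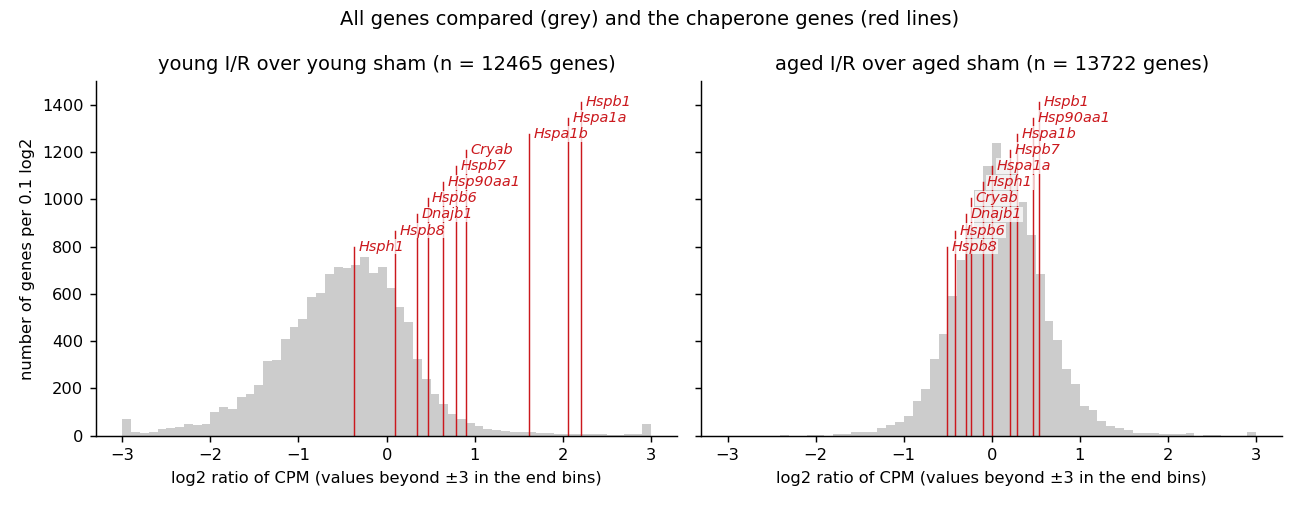
Distribution of the log2 ratio of CPM, I/R over sham, over all genes with at least 100 UMIs in the pair (grey, number of genes per bin of 0.1 log2) with the chaperone genes as labelled red lines whose heights only separate the names. In young hearts every line lies to the right of the median of all genes at -0.44, from Hsph1 at -0.37 to Hspb1 at 2.20, and in aged hearts the lines lie between -0.50 and 0.54, on both sides of the median at 0.09.

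Set side by side, the I/R ratio was lower in aged than in young hearts for 9 of 10 members, against 27.0% of all genes. The difference, aged minus young, was -2.05 on the log2 scale for Hspa1a (interval -2.68 to -1.43), -1.66 for Hspb1 (-1.73 to -1.60), -1.33 for Hspa1b (-2.09 to -0.57) and -1.13 for Cryab (-1.16 to -1.11). These 4 of 10 were at least 2-fold lower, against 3.19% of the 12448 genes with a ratio at both ages, whose median difference was 0.54. The other members lay between -0.88 for Hspb6 and -0.17 for Hsp90aa1, and Hsph1 was the exception at 0.27. Scaled by the ribosomal protein genes, the differences were -1.35 for Hspa1a, -0.96 for Hspb1, -0.62 for Hspa1b and -0.43 for Cryab, and 5 of 10 members were lower in aged hearts, 1 of them by 2-fold or more, against 6.91% and 0.578% of all genes under the same scaling. The difference was below 0 for Hspb1, Cryab, Hspa1a, Hspa1b and Hspb6 under each of the 5 ways of scaling the full libraries that were run. Among barcodes with under 10% mitochondrial UMIs, which were 39099 in young sham and 44507 in aged I/R but 5252 in young I/R and 1941 in aged sham, no member was 2-fold lower, with Hspb1 at -0.88 and Cryab at -0.53, on 97 and 1099 UMIs in aged sham, and Hspa1b, at 0 UMIs there, gave no value.

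Between the sham libraries, the members other than Hsph1 differed little. Of the 9 with enough UMIs, all but Hspa1b, 7 were above 0, where 4865 of 12901 genes were. The median of the 9 was 0.07, against -0.14 over all of those genes. None was 2-fold higher, against 1.57% of all genes, and none 2-fold lower, against 4.49%, with Hsph1 just inside that limit. Hspb7 (0.31) and Hspb6 (0.30) were the highest in aged sham and Hspb1 (-0.23) was the lowest after Hsph1. Ribosomal protein genes moved the same way, with a median of 0.52 and 73 of 75 above 0, and scaled by them the 9 members were below 0, as were 93.3% of all genes, whose median was then -0.69 and lay under 7 of the 9.

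After I/R, all 10 members were lower in aged hearts, where 10495 of 13434 genes were higher. The median was -0.66 against 0.43 over all genes. Hspb1 was 3.72-fold lower (log2 -1.90), Hspa1a 3.54-fold (log2 -1.82), Hspa1b 3.16-fold (log2 -1.66) and Cryab 2.09-fold (log2 -1.06). These 4 of 10 compare with 0.863% of all genes at least 2-fold lower, and the absence of any member 2-fold higher compares with 16.8%. Hsp90aa1 had the smallest ratio, at -0.13, and was 0.03 when scaled by the ribosomal protein genes. This comparison and the 2 before it share libraries and do not count as separate evidence.

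The barcodes were next ordered by their share of cardiomyocyte marker UMIs, among those with at least 200 detected genes. The variance of the share of small heat shock protein UMIs across barcodes was 1.06 to 1.24 times what counting alone gives. For the inducible chaperones it was 1.01 to 1.07 times. The ratio was 1.36 to 2.72 for cardiomyocyte markers and, for erythroid markers, which mark red cells, 13.1 to 37.4. This ratio depends on the UMIs of a list in a barcode as well as on the spread between barcodes. Few UMIs keep it near 1 unless the spread is large, as for erythroid markers, at 1025 to 2567 CPM. A value near 1 therefore does not show that the barcodes were alike, and the ratio does not rank the lists by their spread. The richest and the poorest 25% are a range of marker share and not a cell type. From the richest to the poorest 25%, cardiomyocyte markers ran from 137280 to 75366 CPM in young sham and from 110936 to 71851 CPM in young I/R.

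Hspb7 and Hspb8 were higher in the richest than in the poorest 25% in all 4 libraries, by log2 0.07 to 0.36 for Hspb7 and 0.11 to 0.27 for Hspb8. Of the 7 members with enough UMIs, these 2 compare with 13.2% of the 6443 genes that were higher in every library. Hspb1, Hspb6 and Cryab were higher in the richest 25% in 3 of the 4 libraries, aged I/R being the exception, with Cryab at 0.24, 0.16, 0.13 and -0.05 in the usual order. This exception depended on the markers: with Ttn and Ryr2 left out of the list, all 5 small heat shock proteins and Hsp90aa1 were higher in the richest 25% of all 4 libraries, against 28.0% of all genes, and Cryab was at 1.26, 0.34, 0.37 and 0.31. With the full list, Hsp90aa1 lay between -0.05 and 0.06 and Hsph1 between -0.13 and 0.07, with no steady direction. For the markers of other cell types, barcodes with at least 3 different markers were set against those with none, and 7 members had enough UMIs. These are sets of barcodes and not cell types. Those with markers still held at least 84951 CPM of cardiomyocyte markers (fibroblast, young I/R, against 91291.5 in those with none). They also had more UMIs, at a median of 846 against 589 for endothelial markers in aged I/R. In all 4 libraries, 1 member was higher for endothelial markers (Hspb6, by at most 0.06), 0 for fibroblast markers and 1 for macrophage markers (Hspb8). These compare with 10.0%, 14.1% and 6.62% of all genes. Every counting interval of Hspb6 for endothelial and of Hspb8 for macrophage markers included 0. Hspb7 and Cryab were lower in fibroblast marker barcodes in all 4 libraries, against 7.40% of all genes, at log2 -0.33 to -0.06 and -0.16 to -0.09. The counting intervals of Cryab included 0 in both young libraries, and that of Hspb7 included 0 in young sham. Cryab in aged I/R was 0.022 among barcodes of 300 to 600 UMIs. Hspb7 was also lower in macrophage marker barcodes in all 4, against 7.13% of all genes, at -0.20 to -0.01, but each of those counting intervals included 0, and young I/R had 52 such barcodes.

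The I/R ratio of the small heat shock proteins had the same sign in barcodes poor, middling and rich in cardiomyocyte marker RNA, and its size differed beyond the counting intervals in some cases. In young hearts it was 2.39, 2.21 and 2.29 for Hspb1, 1.11, 0.98 and 1.07 for Cryab and 0.99, 0.78 and 0.84 for Hspb7. In aged hearts it was 0.69, 0.57 and 0.44 for Hspb1 and -0.11, -0.21 and -0.28 for Cryab, so that the poorest 25% had the highest value for both and its interval did not overlap that of the richest 25%. The interval of Hspb7 in the poorest 25% of young hearts, 0.91 to 1.06, likewise lay above that of the middle barcodes, 0.74 to 0.83. For Hspa1a and Hspa1b the intervals of the ranges spanned more than 1 log2 unit and overlapped. The ranges were cut within each library and so do not hold the same marker share. The cuts were 8.94% and 12.2% in young sham, 8.04% and 10.1% in young I/R, 8.42% and 10.6% in aged sham, and 9.99% and 12.1% in aged I/R. Barcodes with at least 200 genes were 26140 of 92200 in young sham but 89990 of 91124 in aged I/R.

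**Figure D4:**
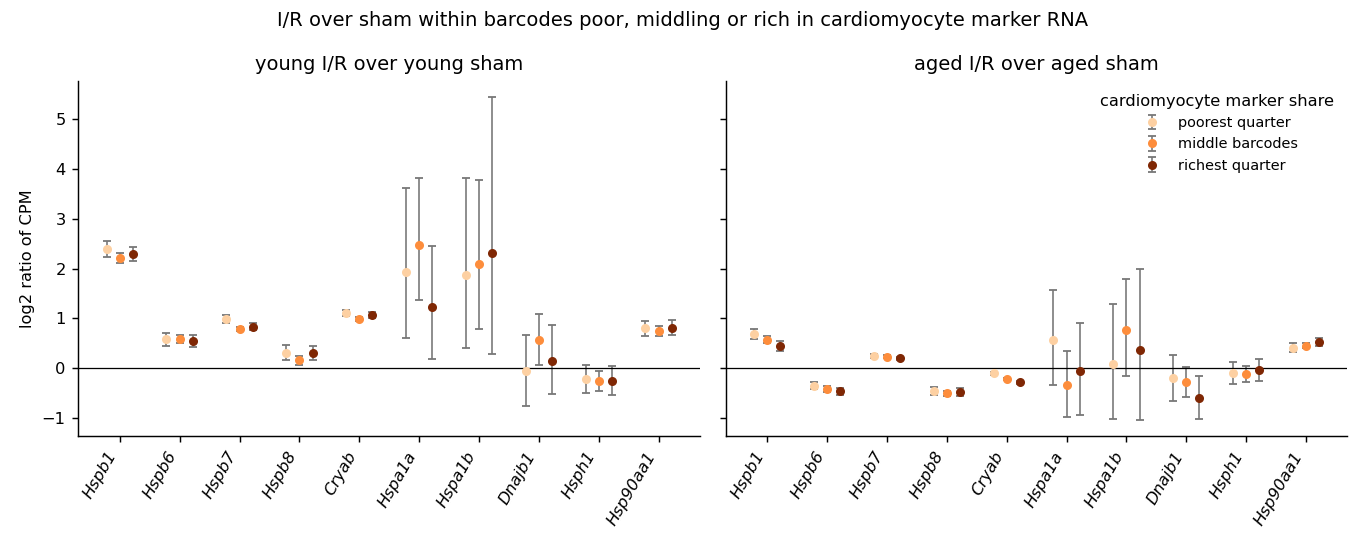
Log2 ratio of CPM, I/R over sham, for each chaperone gene in the 25% of barcodes poorest in cardiomyocyte marker RNA, the middle barcodes and the richest 25%, in young (left) and aged (right) hearts, with 95% exact counting intervals. Hspb1 in young hearts is at 2.39, 2.21 and 2.29, Cryab in aged hearts at -0.11, -0.21 and -0.28, and Hspa1a, Hspa1b and Dnajb1 have wide intervals.

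Other parts of the chaperone network were read from 10 lists. The cytosolic chaperonin CCT, the ring that folds actin and tubulin, had 8 of 8 subunits above 0 in young I/R (median 0.60, from 0.33 to 0.82), 4 of 8 in aged I/R (median 0.05), and 0 of 8 in aged over young I/R (median -0.39). In those comparisons 3042 of 12465, 7934 of 13722 and 10495 of 13434 genes were above 0. Ribosomal protein genes had medians of 0.41, -0.22 and -0.11 there. No CCT gene reached 2-fold in any comparison.

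HSF1 targets outside the members had a median of 0.09 in young I/R, with 13 of 18 above 0 and 15 of 18 above the median of all genes, which all 10 members also exceeded, as did 8 of 8 mitochondrial chaperones and 8 of 9 nucleotide exchange and aggregation partners. In aged I/R the targets were spread around 0, with 12 of 18 above 0 and a median of 0.14. Among all genes, 3042 of 12465 were above 0 in young I/R and 7934 of 13722 in aged I/R. None of the 18 targets was past 2-fold in any of the 4 comparisons. Hspa8, the constitutive HSP70, had 682 CPM in sham and 1127 in I/R when young, then 712 and 791 when aged, with log2 ratios of 0.72 and 0.15. Hsp90ab1, the constitutive HSP90, was at 892, 943, 668 and 1274 CPM and so was highest in aged I/R (log2 0.93 over sham, against 0.08 in young hearts). Bag3, the partner of Hspb8, was at 148, 199, 161 and 177 CPM.

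The transcription factor Hsf1 was at 29.7 CPM in sham and 11.3 in I/R of young hearts, against 13.3 and 19.1 in aged hearts. It was lower in young I/R (log2 -1.39), where Hspa1a and Hspb1 were higher, and lower in aged than in young sham (log2 -1.16). Hsf4 was also lower in young I/R (log2 -1.36), and Hsf2 was at -0.43, near the median of all genes at -0.44. The 3 factors with enough UMIs were thus below 0 there, where only 3042 of 12465 genes were above 0. Hsf1 and Hsf4 were at least 2-fold lower, as were 22.0% of all genes. Hsbp1, which binds heat shock factors and was on the same list, was at 0.27.

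Of the remaining lists, some held genes past 2-fold and some did not. In the HSP90 and co-chaperone list, Fkbp5, an immunophilin induced by glucocorticoids, ran 13.9, 65.3, 10.6 and 56.3 CPM and was higher in I/R at both ages (log2 2.23 and 2.41), whereas Hspb1, Hspa1a and Hspa1b were past 2-fold in young hearts only. In the HSP70 family Hspa12a was lower in young I/R (log2 -1.92) and 1.45 higher on the log2 scale in aged than in young I/R. Among the J-domain proteins Dnajb14 was lower in young I/R (log2 -1.02). Of all genes, 2.43% were at least 2-fold higher and 22.0% at least 2-fold lower in young I/R. In aged I/R 3.58% were at least 2-fold higher than in sham, and 16.8% were at least 2-fold higher in aged than in young I/R. The mitochondrial chaperones had medians of 0.11 in young and 0.02 in aged I/R, with no gene past 2-fold, and neither was any of the nucleotide exchange and aggregation partners (medians 0.25 and 0.18). The J-domain list had medians of -0.10 and 0.35, the HSP70 family 0.20 and 0.24, and the HSP90 list -0.02 and 0.01. The medians of all genes were -0.44 in young and 0.09 in aged I/R. Of the small heat shock proteins outside the members, 3 of 5 had enough UMIs, with medians of -0.37 and -0.57.

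Immediate early genes, which respond to stress within minutes and also to tissue handling, were listed as a comparison. In young I/R, 9 of 12 were above 0 (median 0.63), against 3042 of 12465 genes. Socs3 (2.69), Atf3 (2.32), Ier3 (2.01) and Fosb (1.06) were past 2-fold there on the log2 scale, against 2.43% of all genes. In aged I/R, Socs3 (1.97) and Atf3 (1.06) were past 2-fold higher, and Egr1 (-1.70) and Dusp1 (-1.26) past 2-fold lower. Between the I/R libraries Fosb (-1.70), Atf3 (-1.10) and Ier3 (-1.05) were lower in aged hearts, as Hspb1, Cryab, Hspa1a and Hspa1b were. Socs3 hardly differed (-0.05). At least 2-fold lower in that comparison were 0.863% of all genes.

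**Figure D5:**
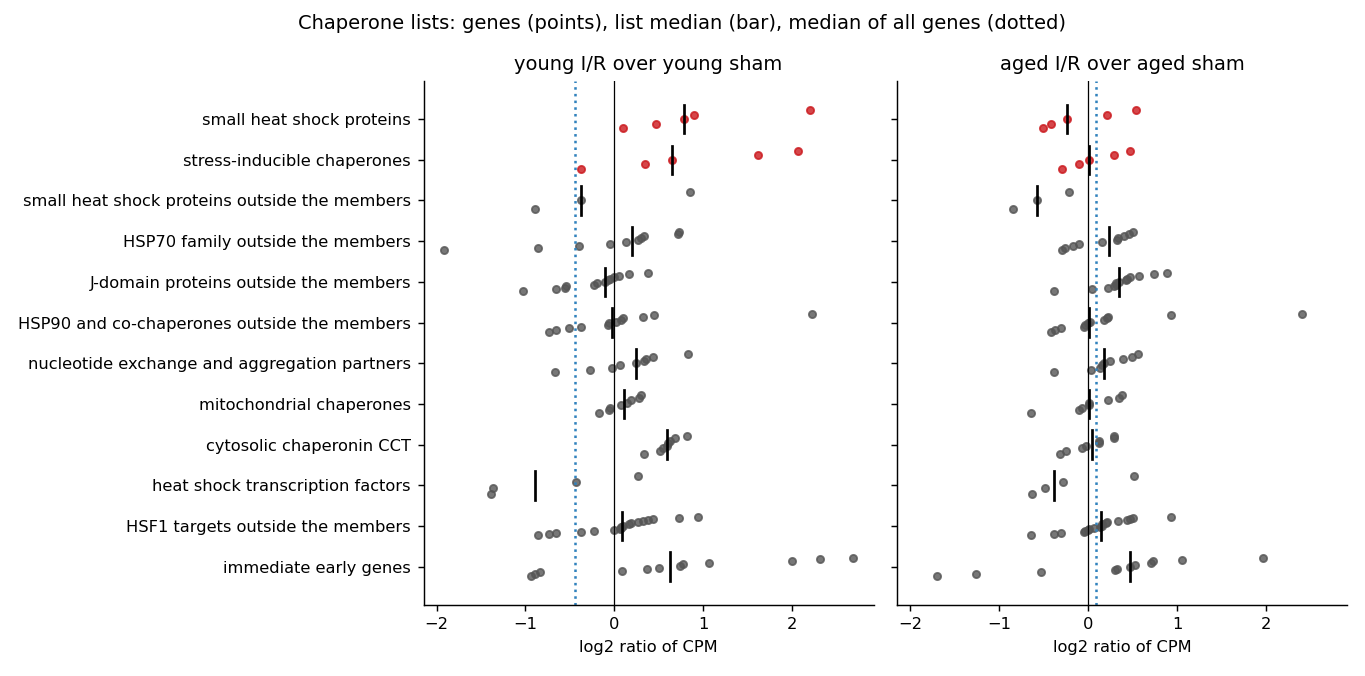
Log2 ratio of CPM, I/R over sham, for the genes of each chaperone list with at least 100 UMIs in the pair of libraries (points; the 2 member lists in red), with the list median as a black bar and the median of all genes as a dotted line. In young hearts the medians of the member lists are 0.79 and 0.64 and that of the CCT list 0.60, and in aged hearts those of the member lists are -0.23 and 0.01.

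The profile of the summed small heat shock proteins over the 4 libraries was closest, among 11542 genes with at least 500 UMIs, to those of 1810055G02Rik, Mrto4, Tsc22d1, Rab20 and Ddx56, by Euclidean distance between centred log2 CPM (0.10 to 0.13). Tsc22d1, for example, was at 93.3, 156, 95.7 and 90.6 CPM. For the summed stress-inducible chaperones the closest were Col4a2, Wee1, Dpysl3, Adrm1 and Anxa7 (distances 0.05 to 0.09), with Col4a2 at 126, 168, 114 and 147 CPM. With 4 libraries, such likeness is a description of these values only.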

How the data were processed

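The authors deposited, for each of 4 libraries made with a 10x Genomics 3′ kit from mouse left ventricle, a matrix of UMI counts per gene and barcode. The submitters' processing notes name Cell Ranger 6.0.2 and mm10; the barcode filter and strand setting are not given in the sources used here. The deposited counts were summed over all barcodes of a library and divided by the library total as CPM. The 10 members and the lists were chosen with earlier results of these data known.

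Counts carry exact Poisson intervals, ratios of counts exact conditional intervals and shares exact binomial intervals, all at 95% and for counting error only. The difference between ages has a normal interval from the 4 counts. Ratios over all genes used those with at least 100 UMIs in the pair of libraries. A call means a ratio of at least 2-fold, and no test was run. Named genes outside the members were Hsf1, Bag3, Hspa8 and Hsp90ab1, up to 4 genes a list and comparison past 2-fold, and the 5 genes closest in profile to each summed group. Hspb2 (for its overlap with Cryab), Malat1, Gm42418, Hsf2, Hsbp1, Ly6g, Proser3, Lin37 and Gm20481 are named outside that rule, after their values were seen. Ratios between barcodes rich and poor in markers (the top and bottom 25% for cardiomyocyte markers) left the markers out of the denominator. Doublets were not removed, since no cell was named. Gene positions came from GENCODE mouse release 21 and promoters from RefSeq. The scripts were checked on simulated counts and ran in Python 3.11.15 with numpy 2.4.6, scipy 1.17.1, pandas 2.3.3, biopython 1.88 and matplotlib 3.10.9. Alternatives were another scaling, another denominator, 3 selections of barcodes, a fold of 1.5, a minimum of 20 UMIs and other marker cuts. Scaling by ribosomal protein genes or cardiomyocyte markers was added after seeing the data, and so was the whole set of alternatives for the difference between ages.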

Additional observations from a re-analysis of the deposited data

Results flagged for a closer look

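In 4 members the I/R ratio lay above 0 in young hearts and below 0 in aged hearts, with counting intervals clear of 0 on both sides. The difference, aged minus young, was -1.13 on the log2 scale for Cryab, -0.88 for Hspb6, -0.64 for Dnajb1 and -0.60 for Hspb8. Each condition had 1 library, so the difference was not tested. Opposite signs were common, at 58.8% of the 12448 genes with a ratio at both ages. Over all 12448 genes, whatever their signs, 27.0% had a lower ratio in aged than in young hearts. The share of genes above 0 in young and below 0 in aged hearts was not counted. Scaled by ribosomal protein genes, the differences were -0.43, -0.18, 0.07 and 0.11 in the same order of genes, against a median of 1.25 over all genes, and the young and aged ratios of Cryab were 0.47 and 0.04.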

How the results depend on the processing

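With 1 library a condition, depth bounds only the counting error, which is wide for Hspa1a and Hspa1b. Scaling mattered more. The young I/R median of the members, 0.72, was 1.12 under gene-wise scaling, 0.86 without mitochondrial genes, Gm42418 and Malat1 in the denominator, 0.81 in barcodes with at least 200 genes, 0.28 under ribosomal and 0.90 under cardiomyocyte marker scaling. The count of 3 members 2-fold up was 6 under gene-wise scaling, and 6 members were at least 1.5-fold up at the main scaling.

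The aged I/R median was -0.14 under gene-wise scaling, -0.14 with the reduced denominator, -0.15 at 300 to 600 UMIs, -0.27 under cardiomyocyte marker scaling, 0.22 under ribosomal scaling and 0.45 in barcodes under 10% mitochondrial UMIs, where 2 members were 2-fold up, 1 of them Hspa1a, on 1 UMI in aged sham. The aged over young sham median was 0.21, 0.14, 0.17 (at least 200 genes), 0.14 (300 to 600 UMIs), 0.18, -0.48 and -0.24 under those settings. There, 1 member was 2-fold down under ribosomal scaling and 2 in the mitochondrial selection, 1 of them Hspa1a on the same UMI. At the main scaling, 1 member was at least 1.5-fold down. The aged over young I/R median was -1.01 under gene-wise scaling, -0.82 with the reduced denominator, -0.96 under cardiomyocyte marker scaling, -0.50 under ribosomal scaling and -0.49 in the mitochondrial selection. Under ribosomal scaling 5 members had a lower response in aged hearts. The 4 members 2-fold lower were 8 under gene-wise, 7 under cardiomyocyte marker and 1 under ribosomal scaling and 0 in the mitochondrial selection.

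Ratios whose counting interval included 0 at the main setting are not listed here, though some changed sign. Among them were Hspa1a (-0.32), Dnajb1 (-0.49) and Hsp90aa1 (-0.50) between shams under ribosomal scaling. The following ratios, with intervals clear of 0 at the main setting, changed direction. Ribosomal scaling gave -0.34 (Hspb8) and -0.087 (Dnajb1) in young I/R, 0.039 (Cryab) and 0.17 (Hsph1) in aged I/R, -0.25 (Hspb6), -0.24 (Hspb7), -0.38 (Hspb8) and -0.48 (Cryab) in aged over young sham, 0.030 (Hsp90aa1) between the I/R libraries, and 0.13 (Hspb7), 0.11 (Hspb8), 0.069 (Dnajb1) and 0.53 (Hsp90aa1) for the aged minus young difference. The mitochondrial selection gave -0.028 (Hspb8) in young I/R, 0.26 (Cryab), 0.45 (Dnajb1) and 0.21 (Hsph1) in aged I/R, -0.23 (Cryab) between shams, and 0.37 (Dnajb1) and 0.21 (Hsp90aa1) for the difference. Hsph1 was 0.034 in young I/R and -0.23 for the difference under gene-wise scaling and -0.14 for the difference under cardiomyocyte marker scaling, which also put Hspb7 at -0.014 in aged I/R. Without Ttn and Ryr2 as markers, Cryab was 0.31 in barcodes rich over poor in cardiomyocyte markers of aged I/R. At 300 to 600 UMIs, Cryab was 0.022 and Hsph1 -0.39 in fibroblast marker barcodes of aged I/R. The causes were not tested. No paired analysis was possible because each condition had 1 library. With genes of at least 20 UMIs, the share of all genes past 2-fold moved by over 1.5 times in 5 cases, to 5.65% higher and 3.02% lower in aged I/R, 3.48% higher and 7.21% lower between shams and 1.58% lower in aged over young I/R.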
